A study of Mus musculus with 18 samples.

Results

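Collagen VI chains and genes of the smooth-muscle contractile apparatus were followed in mouse embryonic stem cells (ESCs), trophoblast stem cells (TSCs) and extraembryonic endoderm (XEN) cells moved from normoxia to hypoxia. The set holds 10 of the 14804 genes found in at least 1 of the 3 deposited expression tables, namely Col6a1, Col6a2 and Col6a3 for collagen VI, and Myl9, Tagln, Acta2, Cnn1, Cald1, Tpm1 and Tpm2 for the contractile apparatus. The members were taken by gene symbol, and the set was chosen by the XEN values of day 7 of hypoxia, in which Col6a1, Col6a2 and Myl9 were high against normoxia. Those values are given below as a description, with no p-value. Of the 10 members, 10 were in the TSC table, 9 in the ESC table and 9 in the XEN table, Col6a3 being listed in the TSC table only.

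The 3 cell types stand for the 3 lineages of the blastocyst. ESCs were the wild-type E14 line, grown on gelatin without feeder cells. TSCs were grown on a layer of feeder fibroblasts, and XEN cells on gelatin in medium that had partly been conditioned on mouse embryonic fibroblasts. The conditioned medium had been filtered. The labels and methods give no line name for the TSCs and XEN cells. Each cell type was sampled in normoxia (20% O2) and after 2 and 7 days of hypoxia (2% O2), with no other treatment and 2 biological replicates per condition, which gave 18 bulk RNA-seq libraries. The columns labelled as the start of the time course were taken as normoxia.

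Collagen VI is a beaded-filament collagen of the pericellular matrix. Its alpha 1, alpha 2 and alpha 3 chains, encoded by Col6a1, Col6a2 and Col6a3, assemble into one heterotrimeric monomer before secretion. The contractile genes encode smooth-muscle alpha-actin (Acta2), a regulatory light chain of myosin II (Myl9), the actin-binding proteins transgelin (Tagln), calponin 1 (Cnn1) and caldesmon (Cald1), and the tropomyosins that run along the actin filament (Tpm1 and Tpm2). Genes of this kind are classical targets of serum response factor (SRF), which binds the CArG box and acts with cofactors of the myocardin family, and they are used as markers of smooth muscle, pericytes and myofibroblasts. XEN cells derive from the primitive endoderm, which gives rise to visceral and parietal endoderm, the latter known for laying down a thick basement membrane.

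Col6a1 and Col6a2 lie on the minus strand of mouse chromosome 10 (GRCm38), at chr10:76708792-76726168 and chr10:76595762-76623630, with 85161 bases between them. Col6a3 is at chr1:90765923-90843971, Myl9 at chr2:156775420-156781658, Acta2 at chr19:34241090-34255590, Cnn1 at chr9:22099216-22109630, Tpm1 at chr9:67022590-67049406 and Tpm2 at chr4:43514711-43523765. Tagln (chr9:45929619-45936058) overlaps Pcsk7 and Gm48529 on the other strand, and Cald1 (chr6:34598500-34775473) overlaps antisense transcripts. Whether reads were counted by strand was not given in the sources used here, so reads of Tagln and Cald1 cannot be told apart from those of their antisense partners. The actin genes also share coding sequence, which makes reads of Acta2 and its paralogs uncertain.

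RefSeq promoters (GRCm38.p6, 250 bases before to 50 after the start of the gene) were found for 9 of the 10 members, not for Tagln. The promoters shown are those of the 3 genes that defined the set, with Acta2 as the classical smooth-muscle gene. Capitals mark a match, on either strand, to the CArG box (CC, 6 bases of A or T, GG), to the M-CAT element CATTCC bound by TEAD factors, or to the hypoxia response element cores ACGTG and GCGTG.
Myl9 (chr2:156775214-156775513, plus strand): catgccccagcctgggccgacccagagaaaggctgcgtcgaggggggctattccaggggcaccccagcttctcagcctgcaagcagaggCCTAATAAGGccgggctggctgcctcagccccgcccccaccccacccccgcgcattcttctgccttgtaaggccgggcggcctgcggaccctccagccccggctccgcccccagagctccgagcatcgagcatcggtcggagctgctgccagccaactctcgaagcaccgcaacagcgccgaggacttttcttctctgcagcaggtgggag
Acta2 (chr19:34255324-34255623, minus strand): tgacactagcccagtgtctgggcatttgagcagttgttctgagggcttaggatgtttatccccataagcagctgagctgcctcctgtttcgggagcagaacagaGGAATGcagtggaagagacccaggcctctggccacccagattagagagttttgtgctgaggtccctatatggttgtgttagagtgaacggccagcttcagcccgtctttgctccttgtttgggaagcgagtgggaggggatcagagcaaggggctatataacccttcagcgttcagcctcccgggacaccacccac
Col6a2 (chr10:76623355-76623654, minus strand): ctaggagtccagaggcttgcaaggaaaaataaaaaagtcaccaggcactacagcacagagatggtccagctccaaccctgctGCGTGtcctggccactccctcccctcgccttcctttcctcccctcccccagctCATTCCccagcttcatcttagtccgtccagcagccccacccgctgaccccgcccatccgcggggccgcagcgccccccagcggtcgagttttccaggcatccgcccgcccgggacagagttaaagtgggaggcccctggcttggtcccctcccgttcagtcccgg
Col6a1 (chr10:76725995-76726294, minus strand): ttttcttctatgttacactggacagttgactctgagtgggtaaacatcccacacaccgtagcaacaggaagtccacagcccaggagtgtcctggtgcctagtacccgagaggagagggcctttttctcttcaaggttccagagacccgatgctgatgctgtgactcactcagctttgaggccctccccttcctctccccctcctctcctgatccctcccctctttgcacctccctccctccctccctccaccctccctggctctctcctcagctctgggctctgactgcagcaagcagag
The Myl9 window held a CArG box 161 bases before the start, a motif found in 1.63% of the 32851 promoters searched. The Acta2 window held an M-CAT element on the opposite strand, 146 bases before the start, and the Col6a2 window held one 115 bases before the start and a GCGTG core 168 bases before it. M-CAT was found in 14.7% of all promoters, ACGTG in 19.6% and GCGTG in 32.4%. None of these motifs was found in the Col6a1, Col6a3 or Tpm2 windows or in the second Col6a2 promoter. Tpm1 held M-CAT and GCGTG, 1 of the 2 Cald1 promoters held M-CAT, and Cnn1 held GCGTG on the opposite strand 71 bases before the start and ACGTG just after the start. These matches describe the windows only. CArG boxes that depart from the strict pattern were not searched, so a window without a mark, as that of Acta2, may still hold a CArG-like box.

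The libraries held 35592641 to 75204029 reads on listed genes, as recovered from the deposited TPM (read counts scaled by length and library size). Sequencing was paired-end, and of genes with 4 to 50 reads, 63.3 to 71.6% had an even count. Both mates of many pairs may thus have been counted, so the fragments behind a low value can be fewer than its reads. These TPM were scaled by gene span, introns included, so levels of different genes were compared only after rescaling by summed exon length, and the 3 tables were normalised separately. Identity markers matched the labels: the summed TPM of 8 XEN markers was 3756 to 4775 in XEN libraries and 15.3 to 29.5 in the others, ESC markers summed to 11417 to 15023 in ESC libraries, and TSC markers to 719 to 1417 in TSC libraries. Hypoxia response genes served as a control of the treatment. In XEN cells on day 7, 12 of 12 had a higher mean than in normoxia, with Adm 4.16 ± 0.30 (SE, limma adjusted p = 0.0119) and Egln3 2.81 ± 0.20 (adjusted p = 0.0119) higher on the log2 scale. In bulk RNA, fewer cells of a type and less RNA per cell cannot be told apart.

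In XEN cells, the collagen VI genes went from near absence in normoxia to a clear presence on day 7. Col6a1 was at 0.142 and 0.108 TPM in the 2 normoxic libraries, at 0.989 and 1.17 TPM on day 2, and at 74.0 and 39.7 TPM on day 7. These values stood on 8 and 10 reads in normoxia, 90 and 104 reads on day 2, and 4848 and 1798 reads on day 7. Each time point therefore lay above the one before it, and the 3 pairs of libraries did not overlap. Col6a2, the partner chain, was at 0 and 0.0541 TPM in normoxia (0 and 8 reads), at 0.205 and 0.203 TPM on day 2 (30 and 29 reads), and at 16.3 and 6.28 TPM on day 7 (1718 and 456 reads). It passed the filter on low values only through the day 7 libraries. Col6a3, the third chain, had no row in the XEN table. In both genes the first day 7 library was the higher one.

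Myl9, the myosin light chain, followed the same order. It was at 0.296 and 0.211 TPM in normoxia (6 and 7 reads), at 4.50 and 3.78 TPM on day 2 (147 and 121 reads), and at 35.6 and 10.2 TPM on day 7 (838 and 166 reads). Here, too, the libraries of the 3 conditions did not overlap, and the first day 7 library was the highest.

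**Figure D1:**
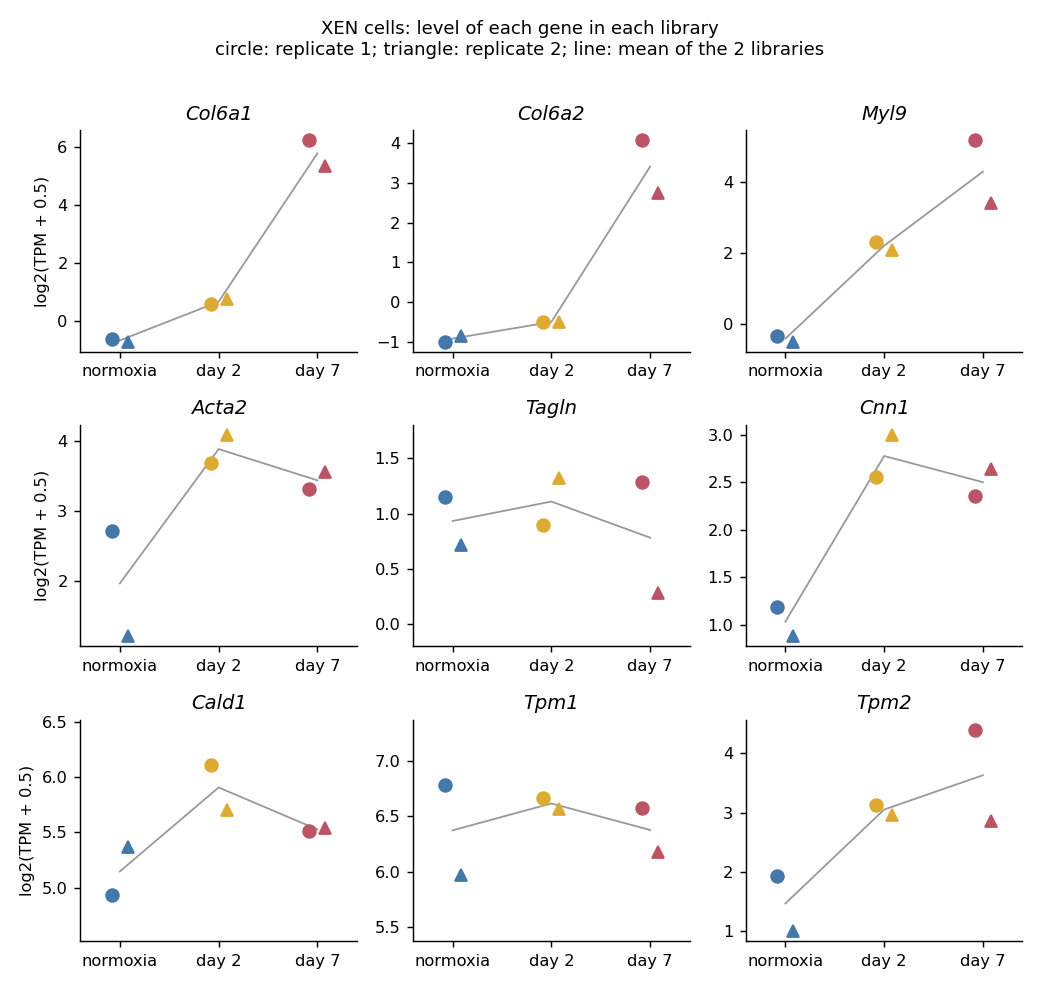
Level of each gene in each XEN library, as log2(TPM + 0.5), for normoxia, day 2 and day 7 of hypoxia, with circles for replicate 1, triangles for replicate 2 and lines through the mean of the 2 libraries. Col6a1, Col6a2 and Myl9 are highest in both day 7 libraries, while Acta2, Cnn1 and Cald1 have their highest mean on day 2 and Tagln and Tpm1 overlap between conditions.

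The other contractile genes of XEN cells did not share this course. Acta2 was at 6.10 and 1.83 TPM in normoxia, at 12.4 and 16.4 TPM on day 2 and at 9.44 and 11.3 TPM on day 7. Cnn1 was at 1.77 and 1.34 TPM, at 5.39 and 7.48 TPM, and at 4.63 and 5.75 TPM in the same order. Both were thus higher in all 4 hypoxic libraries than in the normoxic ones, with the highest mean on day 2. Tpm2 was at 3.30 and 1.498 TPM in normoxia, 8.29 and 7.32 TPM on day 2 and 20.6 and 6.78 TPM on day 7, so that only 1 of its day 7 libraries exceeded those of day 2. Cald1 was at 30.0 and 40.6 TPM in normoxia, 68.4 and 51.6 TPM on day 2 and 45.1 and 46.1 TPM on day 7, which placed both hypoxic pairs above normoxia and day 7 below day 2. Tpm1 (61.9 to 109 TPM) and Tagln (0.715 to 2.00 TPM) overlapped between all 3 conditions.

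The comparison of day 2 with normoxia in XEN cells asks what had changed early in hypoxia. It uses libraries that the choice of members did not use, except that the normoxic libraries are those of the day 7 comparison. A gene was called differentially expressed (DE) at a limma adjusted p of at most 0.1 and a fold change over 1.5, on log2(TPM + 0.5). None of the 9 members was called, as was none of the 10894 genes tested (0%), and voom on the recovered reads also called 0 genes. Col6a1, Col6a2 and Myl9 were not above the 0.4 TPM of the filter in normoxia and were tested through their hypoxic libraries, Col6a2 through those of day 7 alone, so their direction is no result and they are left out of the counts that follow. Of the other 6 members, 4 had an unadjusted limma p under 0.05, namely Cnn1, Tpm2, Cald1 and Acta2, as did 846 genes in all (7.77%). By the libraries alone, the same 4 of 6 were higher in both day 2 libraries than in both normoxic ones, where 19.6% of all genes tested were. The 6 had a median log2 difference of 1.17 beside -0.01 over all genes tested, and 4 of them were past 1.5-fold higher, as were 4.62% of all genes.

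Of those 6, Acta2 had the largest value on day 2, 1.91 ± 0.46 on the log2 scale (SE, limma adjusted p = 0.432). Cnn1 was at 1.75 ± 0.25 (adjusted p = 0.287), Tpm2 at 1.59 ± 0.52 (adjusted p = 0.558) and Cald1 at 0.76 ± 0.21 (adjusted p = 0.477). Tpm1 stood at 0.24 and Tagln at 0.18. None of these passed the test. The 3 members left out are given as values only, Myl9 at 2.62, Col6a1 at 1.33 and Col6a2 at 0.42. These low genes are compressed by the pseudocount. The ratio of mean TPM of Myl9 was 16.3, with 13 reads in all behind the normoxic mean. Acta2 and Cnn1 passed the test when normoxia replicate 1 was left out (adjusted p = 0.0289 and 0.0839), a setting that called 61 of the 10894 genes (51 higher and 10 lower), the remaining normoxic library then being assumed to vary like the other groups.

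From normoxia to day 7, the contrast that chose the set, the log2 difference was 6.45 for Col6a1, 4.71 for Myl9 and 4.34 for Col6a2, the first 3 of the 10894 genes in that order. The call rule takes in 12 genes of that contrast (0.11% of those tested), these 3 among them by the choice of the set, and nothing is read from it. Tpm2 followed at 2.17, with Cnn1 and Acta2 both at 1.47, Cald1 at 0.38, Tpm1 at 0.00 and Tagln at -0.15. From day 2 to day 7, which uses the same day 7 libraries and is likewise a description, the log2 difference was 5.12 for Col6a1, 3.92 for Col6a2, 2.09 for Myl9, -0.44 for Acta2 and -0.38 for Cald1. The ratio of mean TPM between day 7 and day 2 was 52.7 for Col6a1, 55.4 for Col6a2 and 5.54 for Myl9, and 0.721 for Acta2.

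**Figure D2:**
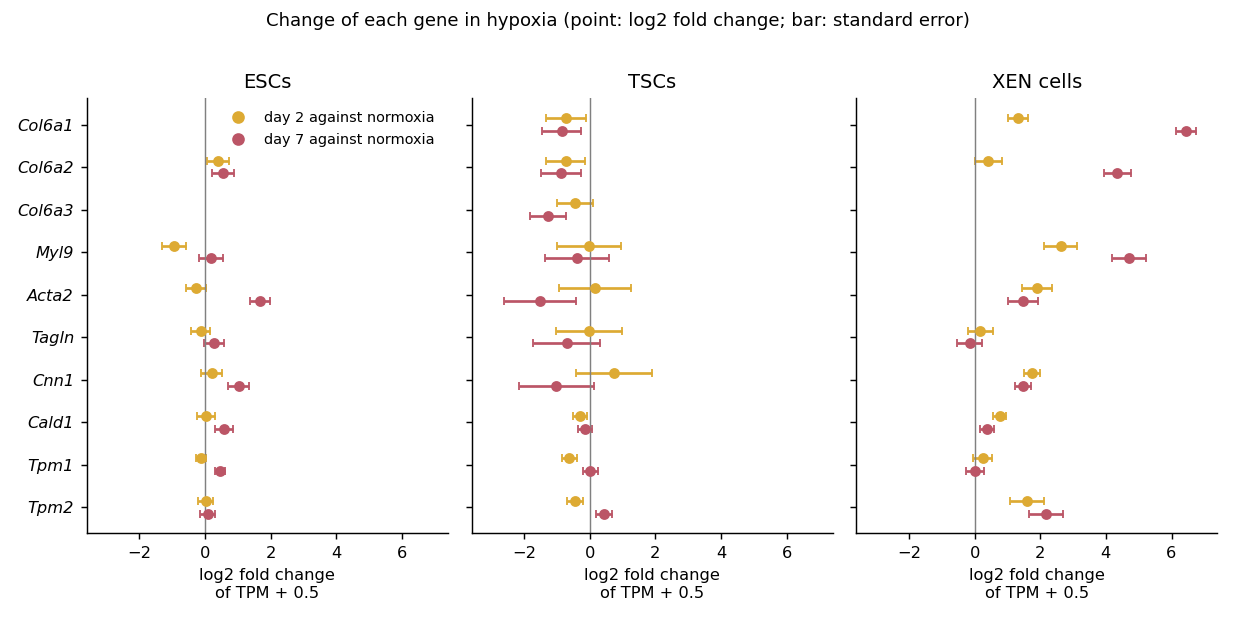
Log2 fold change (± SE of the limma fit) of each member against normoxia on days 2 and 7, in ESCs, TSCs and XEN cells. Col6a1, Myl9 and Col6a2 stand at 6.45, 4.71 and 4.34 in XEN cells on day 7, the values that chose the set, while most TSC values lie below 0 with wide errors and Acta2 stands at 1.68 in ESCs on day 7.

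Rescaled to exon length, the order of the levels in XEN cells changed with time. In normoxia Cald1 (mean 160) and Tpm1 (109 exon-length TPM) were far above Acta2 (8.07), Tpm2 (2.30), Cnn1 (1.83) and Tagln (1.43), with Myl9 (0.420), Col6a1 (0.153) and Col6a2 (0.0279) last. On day 7 Cald1 (207) and Tpm1 (106) were still first, followed by Col6a1 (69.6), Myl9 (38.0), Acta2 (21.2), Tpm2 (13.2) and Col6a2 (11.7), with Cnn1 (6.10) and Tagln (1.33) last. Each gene from Col6a1 down to Cnn1 in this day 7 order overlapped in its libraries with the next, so those neighbours are not separated, while Cald1, Tpm1 and Tagln stood clear. In normoxia Cald1 overlapped with Tpm1, and Tpm2, Cnn1 and Tagln overlapped with each other. The ratio of Col6a1 to Acta2 on this scale was 0.0140 and 0.0356 in the normoxic libraries, 0.0481 and 0.0427 in those of day 2, and 4.71 and 2.11 in those of day 7. Acta2 over Myl9 went the other way, from 25.3 and 10.7 in normoxia to 3.38 and 5.34 on day 2 and 0.326 and 1.36 on day 7. Tpm1 over Tpm2 was 44.1 and 55.0 before hypoxia, 16.2 and 17.1 after 2 days, and 6.10 and 14.1 after 7 days.

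The 2 collagen VI chains of XEN cells were unequal on the exon-length scale. Col6a1 exceeded Col6a2 by a ratio of 5.70 and 6.82 on day 2 and of 5.36 and 7.50 on day 7. In TSCs, where all 3 chains were listed, Col6a1 over Col6a2 stayed between 2.30 and 2.72 in the 6 libraries, and Col6a1 over Col6a3 between 1.41 and 3.16. The 2 cell types did not overlap in the first ratio once XEN cells were in hypoxia, and normoxic XEN libraries gave a ratio in 1 library only (2.38, on 10 and 8 reads).

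The XEN pattern was set against lists of related genes. The lists were compiled with results of these data known, so their counts are descriptive, and calls are those of limma (voom called 0 genes of the whole table on day 2 and 6 on day 7). Of 26 other smooth-muscle contractile genes, 20 were in the XEN table and 18 were tested. On day 2, 15 of the 18 had a positive log2 difference with a median of 0.49, and 0 were called. An unadjusted p under 0.05 was found for 7, where 7.77% of all genes had one. Itga7, an integrin subunit of muscle, was at 1.14 (adjusted p = 0.612), Hspb1, a small heat shock protein, at 0.86 (adjusted p = 0.700) and Des, the muscle intermediate filament desmin, at -1.42 (adjusted p = 0.477). On day 7, 13 of 18 were positive with a median of 0.29 and 0 were called. An unadjusted p under 0.05 was found for 3 of the 18 on day 7, where 9.01% of all genes had one, the largest values being Ppp1r14a, an inhibitor of myosin phosphatase, at 1.06 (adjusted p = 0.326), Itga7 at 0.78 and Smtn at 0.76. Myh11, the smooth-muscle myosin heavy chain, Actg2, Mylk and Itga8 had no row in the XEN table.

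Non-muscle and striated paralogs of the members gave a like picture. On day 2, 15 of 15 had a positive value with a median of 0.28, and on day 7, 9 of 15 with a median of 0.19, and 0 were called at either time (5 at an unadjusted p under 0.05 each time). Over all genes tested in XEN cells the medians were -0.01 and -0.03, and 7.77% and 9.01% had an unadjusted p under 0.05. Acta1, skeletal alpha-actin, stood out at 2.21 ± 0.60 on day 2 (adjusted p = 0.472, mean TPM 6.47 in normoxia and 26.4 on day 2) and at 1.59 on day 7. Cnn2 (0.68) and Tpm4 (0.58) came next on day 2. Of the SRF and myocardin-related factors and their targets, 13 of 16 were positive on day 2 (median 0.33) and 11 of 16 on day 7 (median 0.32), with 0 called and with 3 and 4 genes at an unadjusted p under 0.05. Ankrd1, a stretch-responsive target, was at 1.58 on day 2 (adjusted p = 0.628) and 1.93 on day 7 (adjusted p = 0.479), the immediate early gene Egr1 at -1.45 on day 2 (adjusted p = 0.805), and Tgfb1i1, a focal adhesion protein, at 1.36 on day 7 (adjusted p = 0.125).

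TGF-beta pathway genes, which act on many contractile and matrix genes, were 13 of 18 positive on day 2 (median 0.22) and 10 of 18 on day 7 (median 0.10), and 0 were called. An unadjusted p under 0.05 was found for 2 and 4 of them, beside 7.77% and 9.01% of all genes. The signal transducer Smad3 was at 0.72 on day 2, and Ltbp3, which binds latent TGF-beta, at 1.005 on day 7. Of 17 genes for collagen VI assembly, binding partners and receptors, 5 were in the XEN table and 4 were tested. Those 4 had a median of 0.01 on day 2 and 0.50 on day 7, with 0 called and with 0 and 1 at an unadjusted p under 0.05. Fn1, fibronectin, had a mean of 3.95 TPM in normoxia and 20.3 TPM on day 7, a difference of 2.14 (adjusted p = 0.126), while Bgn was at 0.51 and Itgb1 at 0.48. Antxr1 and Antxr2, the anthrax toxin receptors that bind collagen VI, had no row. Of the 24 fibrillar collagens and mesenchymal matrix genes, 8 were listed and 6 tested, with a median of 0.47 on day 2 and -0.01 on day 7. Parietal endoderm markers were 6 of 12 positive on day 2 (median -0.01) and 12 of 12 on day 7 (median 0.29), led by the laminin genes Lama1 (0.45) and Lamb1 (0.44) and by Col4a1 (0.43), again with 0 called (1 and 0 at an unadjusted p under 0.05). Visceral endoderm markers had medians of -0.70 and -0.26, and the signalling ligand Ihh was at -1.83 (adjusted p = 0.241) and -1.35 (adjusted p = 0.116).

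**Figure D3:**
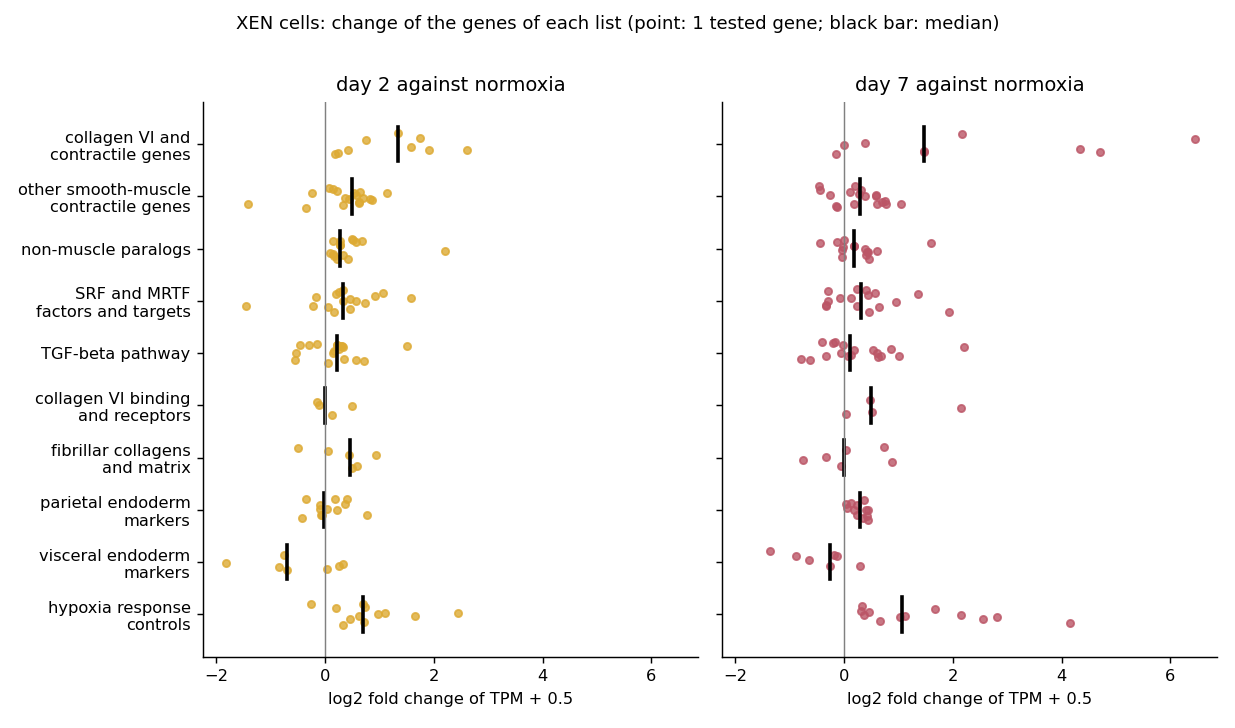
Log2 fold change against normoxia of the tested genes of each list in XEN cells on days 2 and 7, each point a gene and each black bar the list median. The medians of the smooth-muscle list are 0.49 and 0.29 and those of the collagen VI partners 0.01 and 0.50. The 3 members furthest to the right on day 7 are those whose values chose the set, so their place is no result.

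Cultured fibroblasts, which had conditioned the medium, are known for collagen VI and contractile genes. In all, 2 of 15 fibroblast markers, Pdgfrb and Col1a2, were in the XEN table. Their summed level was 0.191 and 0.304 TPM in normoxia, 0.443 and 0.448 TPM on day 2, and 0.650 and 0.521 TPM on day 7. The sum was thus higher in all 4 hypoxic libraries than in normoxia, as were Col6a1 and Col6a2, and its part in their values was not tested. Both markers were near the floor. Pdgfrb was at 0.123 and 0.104 TPM in normoxia and 0.287 and 0.342 TPM on day 2. Col1a2 overlapped, at 0.0671 and 0.200 TPM in normoxia and 0.156 and 0.106 TPM on day 2. The day 2 rise of the sum was therefore that of Pdgfrb. On day 7 both markers were above both normoxic libraries, Pdgfrb at 0.419 and 0.250 TPM and Col1a2 at 0.231 and 0.272 TPM. The defining genes Col1a1, Col3a1, Dcn and Thy1 had no row. Of 11 vascular smooth-muscle and pericyte markers, 6 were listed, and their summed TPM (36.1 and 41.1 in normoxia, 25.7 and 32.1 on day 2, 39.0 and 44.9 on day 7) were below normoxia on day 2 and overlapped with it on day 7. Myh11, Rgs5, Kcnj8 and Abcc9 were not listed.

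The genes whose course over the 6 XEN libraries was most like that of Col6a1, Col6a2 and Myl9 were ranked by Pearson r among the 138 tested genes with an SD of at least 1. The first 10 were Vldlr (r = 0.969), Creb3l1 (0.961), AI661453 (0.959), Egln3 (0.954), Myl7 (0.953), Mmp2 (0.952), Cck (0.950), Adm (0.948), Pou3f1 (0.940) and Fn1 (0.938). The 6 libraries fall into 3 conditions, so any gene that is high on day 7 scores well. Mmp2, a matrix metalloproteinase, was at 0.0943 and 0.310 TPM in normoxia, 0.161 and 0.149 TPM on day 2, and 18.5 and 5.70 TPM on day 7. Creb3l1, a transcription factor of the secretory pathway known for collagen genes, was at 7.30 and 6.37, then 12.01 and 7.80, then 51.3 and 20.01 TPM. Both shared with the collagen VI genes the higher first day 7 library. Myl7, the atrial myosin light chain, was at 1.15 and 0.351 TPM in normoxia, 2.22 and 1.73 TPM on day 2 and 7.42 and 5.01 TPM on day 7, a stepwise course like that of Myl9. Adm, a hypoxia-induced peptide hormone, was at 17.2 and 18.8 TPM on day 7, where the 2 libraries were alike.

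In ESCs, which lacked feeders, the collagen VI genes stayed near the limit of detection. Col6a1 was at 0.109 and 0.0516 TPM in normoxia, 0.212 and 0.334 TPM on day 2 and 0.508 and 0.234 TPM on day 7, and was below the level needed for the test. Col6a2 was at 0.159 and 0.113 TPM, 0.147 and 0.597 TPM, and 0.754 and 0.187 TPM in the same order. For Col6a2 the replicates of day 2 and of day 7 differed by more than either condition did from normoxia. Myl9, in contrast, was well expressed in normoxic ESCs at 56.5 and 38.7 TPM, a level that XEN cells did not reach in any library, with the reservation that the tables were normalised separately.

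Acta2 was the member that changed in ESCs. It was at 7.04 and 4.64 TPM in normoxia, at 6.56 and 3.28 TPM on day 2, and at 18.5 and 20.4 TPM on day 7. Both day 7 libraries lay above the other 4, which overlapped. Acta2 rose by 1.68 ± 0.30 on the log2 scale from normoxia to day 7 (SE, limma adjusted p = 0.0790, ratio of mean TPM 3.33) and by 1.95 ± 0.30 from day 2 to day 7 (adjusted p = 0.0860). It was the only 1 of 8 tested members called in either comparison, where 0.758% and 0.179% of the 12271 genes tested were called. With a replicate block the adjusted p was 0.139 and 0.180. The call on day 7 was lost without normoxia replicate 1 (adjusted p = 0.248), normoxia replicate 2 (0.715), day 7 replicate 1 (0.430) or day 7 replicate 2 (0.256), with a log2 value of 1.40 to 1.96. The call against day 2 was lost without normoxia replicate 1 (0.237), normoxia replicate 2 (0.229), day 7 replicate 1 (0.466) or day 7 replicate 2 (0.501), with a log2 value of 1.88 to 2.02.

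**Figure D4:**
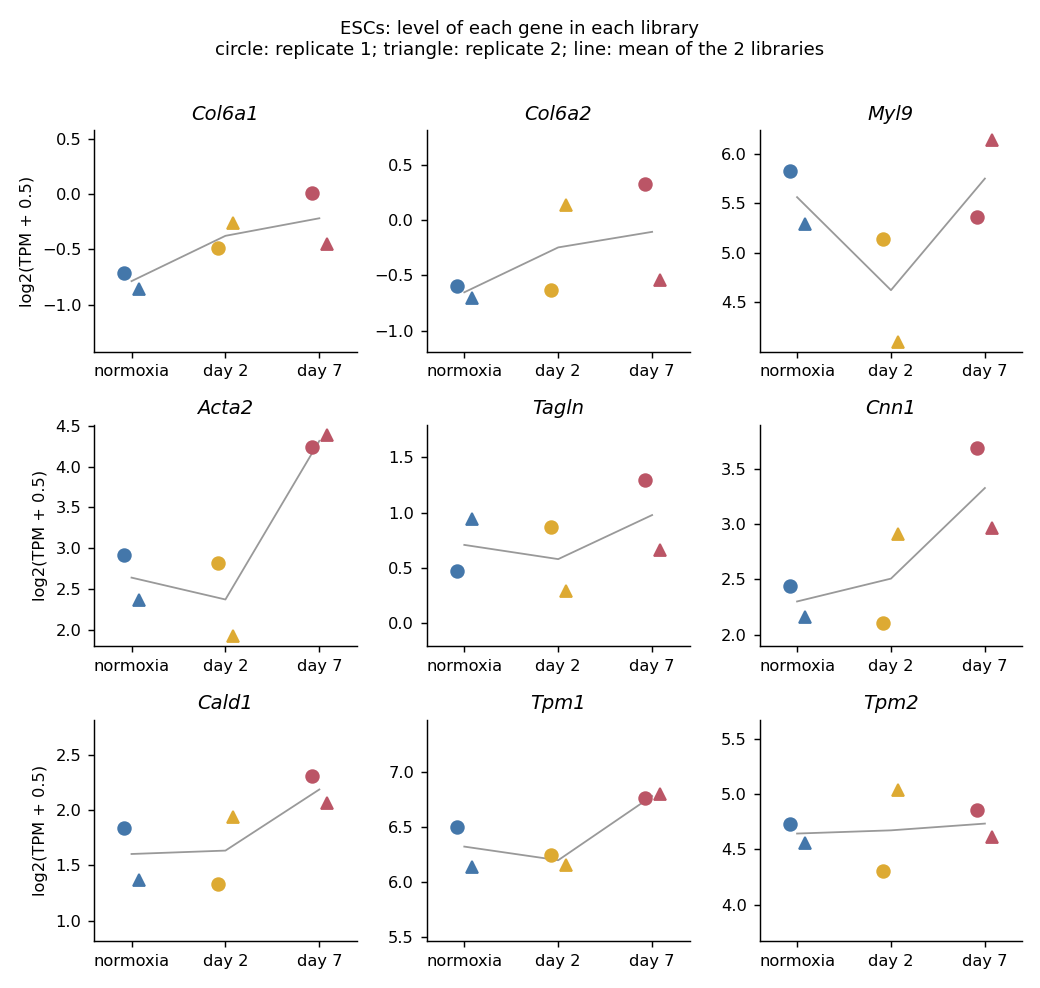
Level of each gene in each ESC library, as log2(TPM + 0.5), for normoxia, day 2 and day 7 of hypoxia, with circles for replicate 1, triangles for replicate 2 and lines through the mean of the 2 libraries. Acta2, at 18.5 and 20.4 TPM on day 7, is clear of its other 4 libraries, and Cnn1, Cald1 and Tpm1 are also highest on day 7, while Myl9 is lowest on day 2.

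Other contractile genes of ESCs leaned the same way on day 7 without passing the test. Cnn1 was at 4.93 and 3.96 TPM in normoxia, 3.80 and 7.00 TPM on day 2 and 12.3 and 7.32 TPM on day 7, a difference of 1.03 ± 0.32 from normoxia (adjusted p = 0.373). Tpm1 was at 90.2 and 70.0 TPM, 75.3 and 70.6 TPM, and 108 and 111 TPM, a difference of 0.46 ± 0.15 (adjusted p = 0.403). Cald1 was at 3.08 and 2.07 TPM, 2.01 and 3.33 TPM, and 4.44 and 3.69 TPM, a difference of 0.58 ± 0.26 (adjusted p = 0.644). Cnn1, Tpm1, Cald1 and Acta2 each had both day 7 libraries above both normoxic ones, where 23% of all genes did. Col6a2 did too, but it was under 0.4 TPM in normoxia. It was tested through hypoxic libraries alone, so its direction is no result. Tagln (0.721 to 1.96 TPM) and Tpm2 (19.3 to 32.3 TPM) overlapped between conditions, and Myl9 overlapped between normoxia and day 7. The median over the 8 members was 0.50 from normoxia to day 7 and 0.57 from day 2 to day 7, beside 0.02 and 0.01 over all genes tested. That median still includes Col6a2, at 0.55 and 0.14. Cnn1 was called on day 7 when day 2 replicate 1 (adjusted p = 0.0697) or day 2 replicate 2 (0.0711) was left out. Without day 2 replicate 1, Myl9 was also called on day 7 against day 2 (1.65, adjusted p = 0.0455).

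On day 2, ESC members showed little. Neither limma nor voom called a member or any other of the 12271 genes (0%), and 620 genes (5.05%) had an unadjusted limma p under 0.05, Myl9 being the 1 member among them. Myl9, at 34.8 and 16.7 TPM on day 2 and 40.8 and 69.8 TPM on day 7, was the only 1 of 8 with both day 2 libraries below normoxia, where 14.4% of genes were. Its difference was -0.94 ± 0.36 (adjusted p = 0.950), and the other 7 lay between -0.27 and 0.41. Without day 2 replicate 1, which was the nearer to normoxia, Myl9 was at -1.46 (adjusted p = 0.0425), in a setting that called 493 of the 12271 genes (345 higher and 148 lower).

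Among the listed genes in ESCs on day 7, the calls were few. Actc1, cardiac alpha-actin, was the only 1 of 18 paralogs called, higher by 1.33 ± 0.21 (adjusted p = 0.0503, mean TPM 0.605 in normoxia and 2.26 on day 7). Col1a1, of type I collagen, was the only 1 of 14 fibrillar collagen and matrix genes called, higher by 2.30 ± 0.37 (adjusted p = 0.0544, mean TPM 1.56 and 10.6). Of those 14 genes, 11 were positive (median 0.39 beside 0.02 over all genes), 10 were higher in both day 7 than in both normoxic libraries, and 6 had an unadjusted p under 0.05, where 8.04% of all genes had one. Col1a1 is also a fibroblast marker, and the 8 of 15 such markers listed in ESCs summed to 42.2 and 48.7 TPM in normoxia, 40.7 and 47.8 TPM on day 2 and 54.3 and 46.2 TPM on day 7. Most of that sum was Thy1 and Twist1, which ESCs also held in normoxia at 26.6 and 23.1 TPM and at 11.3 and 21.1 TPM. The fibrillar collagens of the list were higher in both day 7 libraries than in the other 4, Col1a1 at 15.1 and 6.05 TPM, Col1a2 at 1.14 and 0.679 TPM and Col3a1 at 0.484 and 0.190 TPM, as Acta2 was. Their part in the Acta2 result was not tested. Of 19 other smooth-muscle genes, 14 were positive (median 0.12, 0 called, 3 at an unadjusted p under 0.05), with Csrp1 at 0.87 (adjusted p = 0.120). Of 15 SRF-related genes, 11 were positive (median 0.18, 0 called, 5 at an unadjusted p under 0.05), with Ankrd1 at 1.46 (adjusted p = 0.207). All 8 tested collagen VI partners were positive (median 0.31, 0 called, 1 at an unadjusted p under 0.05).

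In normoxia each of the 9 members listed for all cell types had a higher mean in TSCs than in ESCs or XEN cells, in tables normalised separately. The spread between TSC libraries was wide. For Myl9 and Cnn1 the TSC libraries overlapped with those of ESCs (56.5 and 38.7 TPM for Myl9, 4.93 and 3.96 TPM for Cnn1). Their higher mean thus rested on the first normoxic TSC library. Acta2 was at 1522 and 140 TPM in the 2 normoxic libraries, at 289 and 916 TPM on day 2 and at 263 and 98.9 TPM on day 7. Myl9 was at 348 and 40.4 TPM, 65.6 and 208 TPM, and 123 and 67.8 TPM in the same order. Cnn1 was at 64.5 and 4.13 TPM, 16.0 and 50.9 TPM, and 11.7 and 5.57 TPM. In each of these the first normoxic library was highest and the second day 2 library next. Tagln had the same first 2 libraries, at 43.2 and 3.97 TPM in normoxia, 7.95 and 21.9 TPM on day 2 and 12.1 and 5.37 TPM on day 7.

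The 3 collagen VI chains followed the same libraries over a narrower range. Col6a1 was at 53.1 and 15.3 TPM in normoxia, 11.1 and 26.4 TPM on day 2 and 15.2 and 15.8 TPM on day 7. Col6a2 was at 24.9 and 7.68, 5.04 and 13.1, and 7.85 and 6.89 TPM. Col6a3 was at 16.8 and 5.90, 4.798 and 10.6, and 4.81 and 3.04 TPM. The highest TSC library exceeded the lowest by 15.6-fold for Cnn1, 15.4-fold for Acta2, 10.9-fold for Tagln, 8.61-fold for Myl9 and 4.78-fold to 5.50-fold for the collagen VI chains. It did so by only 2.45-fold for Tpm2, 1.97-fold for Tpm1 and 1.46-fold for Cald1, which did not share the order of the libraries.

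The TSCs were grown on feeder fibroblasts, and all 15 fibroblast markers were listed. Their summed level was 1970 and 299 TPM in normoxia, 231 and 1053 TPM on day 2, and 492 and 301 TPM on day 7, an 8.52-fold range. The first normoxic and the second day 2 library were again highest and next. The pericyte markers (9 of 11 listed) summed to 282 and 94.7, 166 and 190, and 99.9 and 93.2 TPM. The part of fibroblast RNA in the TSC levels of the members was not tested.

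**Figure D5:**
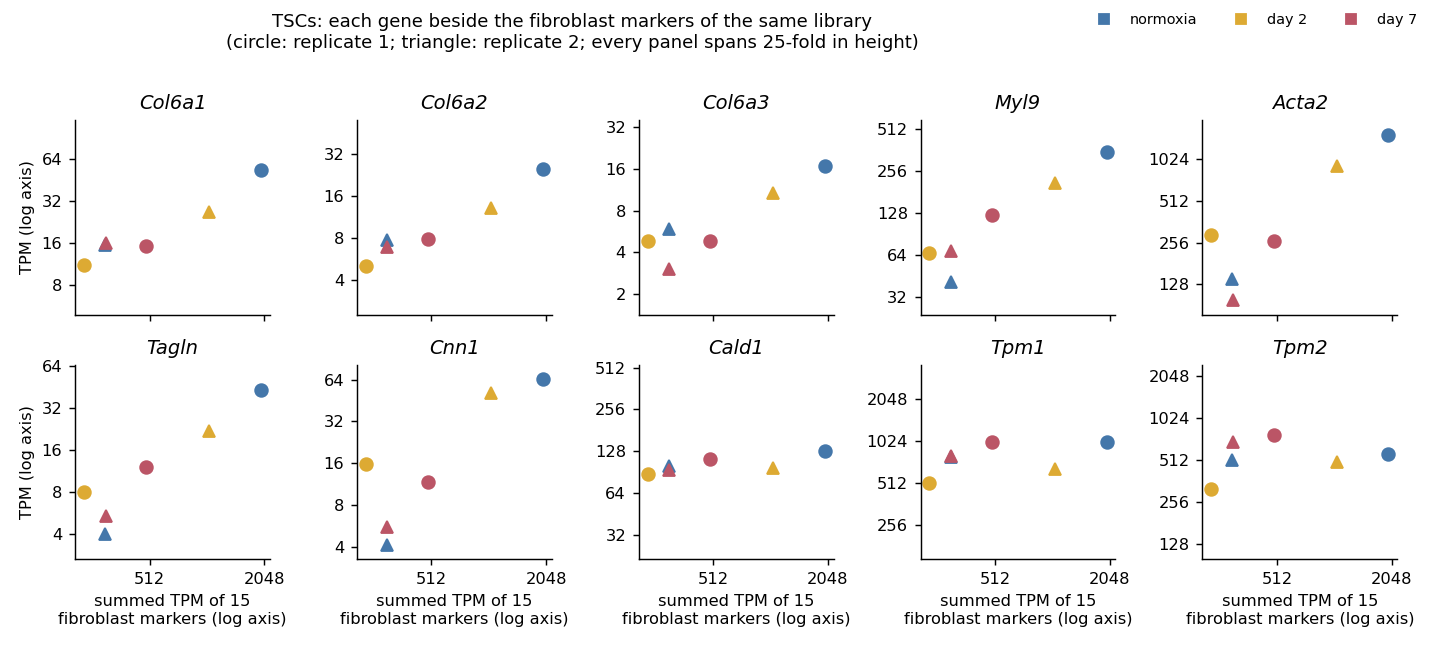
TPM of each member in the 6 TSC libraries against the summed TPM of 15 fibroblast markers in the same library, both on log axes. The 7 genes Col6a1, Col6a2, Col6a3, Myl9, Tagln, Acta2 and Cnn1 are highest in the normoxic library with a marker sum of 1970 TPM and next in the day 2 library with 1053 TPM, while Cald1, Tpm1 and Tpm2 vary less.

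With this spread, TSC comparisons of the members resolved little. On day 2, none of 10 members was called, where 0.2% of the 12481 genes tested were and 1 member, Tpm1, had an unadjusted p under 0.05, where 13.1% of genes did (voom also called 0 members). Col6a1 was at -0.72 ± 0.60 (adjusted p = 0.642), Acta2 at 0.16 ± 1.10 and Cnn1 at 0.74 ± 1.15. Cald1, Tpm1 (-0.62 ± 0.23, adjusted p = 0.331) and Tpm2 (-0.44 ± 0.24, adjusted p = 0.485) were lower in both day 2 libraries, where 16.9% of genes were. On day 7, none was called by limma or voom, where 0.385% of genes were called by limma, and 0 members had an unadjusted p under 0.05, where 10.4% of genes did. In this comparison 8 of 10 values were negative with a median of -0.78 beside -0.18 over all genes. Median-ratio scaling removes the all-gene shift of -0.18, but of the negative members it turned only Cald1 positive (0.051). Acta2 was at -1.52 ± 1.10 (adjusted p = 0.671), Col6a3 at -1.28 ± 0.55 (adjusted p = 0.489) and Tpm2 at 0.45 ± 0.24 (adjusted p = 0.591). Without normoxia replicate 1, which had the highest fibroblast marker sum, day 7 values were 0.02 for Col6a1, 1.17 for Myl9, 0.94 for Tagln, 0.20 for Acta2, 0.89 for Cnn1 and 0.04 for Cald1, so that 6 of the negative values turned positive. Without normoxia replicate 2, Acta2 was called on day 7, at -3.23 (adjusted p = 0.0942).

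Tpm2 was the TSC member that changed, between day 2 and day 7. It was at 564 and 512 TPM in normoxia, 316 and 498 TPM on day 2 and 774 and 693 TPM on day 7. The 2 day 7 libraries were the highest and the 2 day 2 libraries the lowest. Tpm2 rose by 0.88 ± 0.24 on the log2 scale from day 2 to day 7 (limma adjusted p = 0.0738, ratio of mean TPM 1.80), the only 1 of 10 members called in a comparison where 16.2% of all genes were called and 2.37% were called higher. The share of members is thus near the background. The split of all calls, 296 higher and 1723 lower, was 738 higher and 968 lower with median-ratio scaling, under which Tpm2 (1.17) and Tpm1 were both called. The 2019 calls became 0 without day 7 replicate 2, 30 without day 2 replicate 1 and 284 without day 7 replicate 1. Tpm1, at 1007 and 787 TPM in normoxia, 517 and 646 TPM on day 2 and 1017 and 800 TPM on day 7, was at 0.64 ± 0.23 (adjusted p = 0.127). With a replicate block the adjusted p of Tpm2 was 0.103. The call was also lost without day 2 replicate 1 (0.56 on the log2 scale, adjusted p = 0.343), day 7 replicate 1 (0.80, adjusted p = 0.203) or day 7 replicate 2 (0.96, adjusted p = 0.251), and without either normoxic library Acta2 (0.0950 and 0.0966) and Cnn1 (0.0715 and 0.0689) were called as well.

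Acta2 (-1.67 ± 1.10, adjusted p = 0.366) and Cnn1 (-1.76 ± 1.15, adjusted p = 0.366) were lower in both day 7 than in both day 2 TSC libraries, where 44.9% of genes were. Cytoskeletal genes outside the set were called in both directions between these days, beside 2.37% of all genes called higher and 13.8% called lower, and none of these calls was made without day 7 replicate 2, when 0 genes were called. In the same comparison 6 of 8 TSC identity markers (median -1.20), 4 of 7 ESC identity markers (median -1.91), 3 of 3 visceral endoderm markers (median -1.68) and 7 of 14 hypoxia response genes (median -0.96) were called lower, and their part in the members' values was not tested. Of 23 other smooth-muscle genes, 5 rose and 1 fell, led by the LIM domain genes Crip2 (1.39, adjusted p = 0.0284), Csrp1 (1.23, adjusted p = 0.0425) and Crip1 (1.14, adjusted p = 0.0649), with Csrp2 at -0.95 (adjusted p = 0.0929). Of 16 paralogs, 3 rose and 1 fell, beta-actin (Actb) by 0.84 (adjusted p = 0.0890), Cnn2 by 0.75 (adjusted p = 0.0562) and Myl6 by 0.68 (adjusted p = 0.0828), with Cnn3 at -0.60 (adjusted p = 0.0964). Of 17 SRF-related genes, Zyx (1.26, adjusted p = 0.0407) and Tgfb1i1 (1.39, adjusted p = 0.0707) rose and Egr1 fell (-2.13, adjusted p = 0.0106). The pericyte list had 1 of 8 called, Notch3 at -1.01 (adjusted p = 0.0635).

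Set side by side, the 3 cell types held the members at different levels, with the tables normalised separately. In normoxia the mean exon-length TPM of Acta2 was 1728 in TSCs, 12.9 in ESCs and 8.07 in XEN cells, and that of Myl9 was 329, 85.7 and 0.420. The TSC and ESC libraries of Myl9 overlapped. Col6a1 was at 42.9 in TSCs, 0.107 in ESCs and 0.153 in XEN cells. Cald1 was at 537 in TSCs, 160 in XEN cells and 12.7 in ESCs, and Tpm2 at 533, 2.30 and 25.6 in TSCs, XEN cells and ESCs. On day 7 Col6a1 was at 69.6 in XEN cells and 20.3 in TSCs, and Col6a2 at 11.7 and 8.12.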

How the data were processed

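RNA-seq was analysed for 18 libraries, 2 biological replicates of each of 3 conditions in each of 3 cell types. According to the submitters' processing notes, reads were trimmed with cutadapt 2.4, aligned to mm10 with STAR 2.7.5a, assembled with StringTie 2.0.6, counted with featureCounts and filtered and tested with edgeR 3.26.8, for protein-coding genes only. The authors deposited TPM (read counts scaled by length and library size), 1 table per cell type. The deposited TPM were reads divided by gene span: multiplied by the span in GENCODE M21, 98.7 to 98.9% of values were whole reads within 0.05. All columns were mapped to samples by label, leaving 0 unused.

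From the TPM, log2(TPM + 0.5) was fitted with limma 3.58.1 (R 4.3.3; two-sided, mean-variance trend) over the 6 libraries of a cell type, for genes above 0.4 TPM in at least 2 of them. P-values were Benjamini-Hochberg adjusted over all genes of a comparison, and genes were called at an adjusted p of at most 0.1 and a fold change over 1.5. The authors' count test was replaced because the tables hold TPM. Pairs of libraries did not overlap when both of one condition exceeded both of the other. Other steps used Python 3.11.15, numpy 2.4.6, pandas 2.3.3 and matplotlib 3.10.9. In data simulated from the real means of day 7 against normoxia, read dispersion (variance beyond counting noise) was set at 0.01 or 0.05. There the fit found 99.5 to 100% of 200 genes changed 4-fold with 13 to 41 false calls. It made 0 to 9 calls with no gene changed. These dispersions were set, not estimated from the libraries. Several members varied far more, as Acta2 did in normoxic TSCs (1522 and 140 TPM). The shares found do not carry over to them, so a member not called is not shown to be unchanged.

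The members and gene lists were chosen with earlier results of these data known. Named genes were all members, in each list the called genes (up to 3 of the largest fold changes per direction) or, with none called, up to 3 of the largest changes, and the 10 genes most like Col6a1, Col6a2 and Myl9; 1 gene of a list is not reported here. P-values set a difference against the spread between the 2 biological replicates, pooled over the 3 conditions of a cell type and moderated across genes. Alternatives were other pseudocounts (0.1 and 1), no filter or a filter at 1 TPM, median-ratio scaling, a replicate block, no trend, an adjusted p of at most 0.05, only the 4 libraries compared, each library left out, voom on the recovered reads, and TPM with exon length.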

Additional observations from a re-analysis of the deposited data

Results flagged for a closer look

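In 7 pairings of cell types, every library of one cell type moved one way and every library of the other the opposite way in the same comparison of a member. None of these differences was tested, because the tables were normalised separately. Libraries that do not overlap were common. On day 2 against normoxia, 14.4% of genes tested were lower in this way in ESCs, 16.9% lower in TSCs and 19.6% higher in XEN cells. From day 2 to day 7, 44.9% were lower in TSCs. The share of all genes moving opposite ways in 2 cell types was not counted, so nothing is read from the 7. On day 2 against normoxia, Myl9 was at -0.94 on the log2 scale in ESCs and 2.62 in XEN cells, Cald1 at -0.30 in TSCs and 0.76 in XEN cells, and Tpm2 at -0.44 in TSCs but 1.59 in XEN cells. In XEN cells Myl9 was under the filter level in normoxia, so its direction there is no result. On day 7 against day 2, Acta2 was at 1.95 in ESCs, against -1.67 in TSCs and -0.44 in XEN cells, which made 2 pairings. In the same comparison Cnn1 was at 0.82 in ESCs and -1.76 in TSCs, and Cald1 at 0.55 in ESCs and -0.38 in XEN cells. The XEN values of day 7 against day 2 use the day 7 libraries that chose the set and are a description only. Of the other values, that of Acta2 in ESCs alone passed the test within its cell type.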

How the results depend on the processing

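The calls of members were few and several sat near the threshold. In ESCs, the 1 call on day 7 against normoxia became 0 with no filter, median-ratio scaling, a replicate block, no trend or an adjusted p of at most 0.05, and 2 with only the 4 libraries compared. Against day 2 it became 0 under those settings, also with a pseudocount of 0.1 and with only the 4 libraries. The log2 value of Acta2 kept its sign in every setting, with an adjusted p of 0.0025 to 0.715 on day 7. In TSCs, the 1 call on day 7 against day 2 became 2 with median-ratio scaling or voom, 0 with the block or the stricter adjusted p, and 3 with only the 4 libraries. The XEN calls that involve day 7 follow from the choice of the set and are given as values, with no stability read from them. There, the 3 calls against normoxia became 1 with only the 4 libraries or voom. The 2 on day 7 against day 2 became 1 with a pseudocount of 1, no filter, the filter at 1 TPM, no trend, the stricter adjusted p or voom. With 1 library left out, the calls ranged from 0 to 1 (day 2), 0 to 2 (day 7) and 0 to 2 (day 7 against day 2) in ESCs, 0 to 1 (day 7) and 0 to 3 (day 7 against day 2) in TSCs, and 0 to 2 (day 2), 1 to 4 (day 7) and 0 to 3 (day 7 against day 2) in XEN cells. A lone remaining library was assumed to vary like the other groups. The cause of these shifts was not tested.

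The labels do not say whether the replicate numbers pair the samples. Deviations of same-numbered libraries correlated at -0.46 to 0.27 over the 9 comparisons, which does not settle it. With the replicate block, the adjusted p was 0.139 and 0.180 for Acta2 in ESCs and 0.103 for Tpm2 in TSCs, and the XEN count on day 2 was 0 as without it.

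Median-ratio scaling removed an all-gene median shift of -0.18 (day 7 against normoxia) and -0.24 (day 7 against day 2) in TSCs. Signs turned only at small values there: Cald1 on day 7 to 0.051 (median-ratio scaling) and 0.039 (voom), Col6a1 to 0.14 and 0.14 and Col6a2 to 0.12 and 0.14 on day 7 against day 2, and Tagln on day 2 to 0.0025 (pseudocount 0.1). Leaving out 1 library turned more. In TSCs on day 2 the range was -1.60 to 0.16 for Col6a1, -1.55 to 0.087 for Col6a2, -1.17 to 0.26 for Col6a3, -1.57 to 1.52 for Myl9, -1.67 to 1.62 for Tagln, -1.56 to 1.87 for Acta2 and -1.16 to 2.65 for Cnn1. On day 7 it was -1.74 to 0.023 for Col6a1, -1.92 to 1.17 for Myl9, -2.34 to 0.94 for Tagln, -3.23 to 0.20 for Acta2, -2.92 to 0.89 for Cnn1, -0.33 to 0.037 for Cald1 and -0.16 to 0.20 for Tpm1. Against day 2 it was -0.75 to 0.47 for Col6a1, -0.79 to 0.50 for Col6a2, -1.18 to 0.48 for Myl9 and -1.38 to 0.027 for Tagln. In ESCs on day 2 it was -0.72 to 0.18 for Acta2, -0.42 to 0.16 for Tagln, -0.19 to 0.61 for Cnn1, -0.27 to 0.34 for Cald1, -0.30 to 0.058 for Tpm1 and -0.33 to 0.39 for Tpm2. On day 7 it was -0.20 to 0.57 for Myl9, -0.048 to 0.59 for Tagln and -0.034 to 0.21 for Tpm2, and against day 2 -0.29 to 0.57 for Col6a2 and -0.30 to 0.42 for Tpm2. In XEN cells on day 2 it was -0.043 to 0.39 for Tagln and -0.17 to 0.65 for Tpm1. With 6 to 10 reads, normoxic XEN levels of Col6a1 and Myl9 are imprecise, and their fold changes depend on the pseudocount (Col6a1 on day 7 at 7.92 with 0.1 and 5.62 with 1).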
